A study of Mus musculus with 10 samples.

Results

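The genes described here are 45 members of mitochondrial and peroxisomal fatty acid oxidation, 27 mitochondrial and 18 peroxisomal, out of 55487 genes in the count table. They were found by matching a written list of symbols to the gene names of the table, and all 45 matched. The split into mitochondrial and peroxisomal genes is that of the list, which counts *Acad11* as mitochondrial. Where each protein lies in the cell was not examined. The cells came from the spinal cord of 5 male mice on a C57BL/6 background that carried a reporter allele for yellow fluorescent protein (YFP). All mice were 8 to 12 weeks old and at the peak of EAE, a model of multiple sclerosis that was induced with a peptide of myelin oligodendrocyte glycoprotein in complete Freund’s adjuvant together with pertussis toxin. From each mouse, viable cells negative for CD3 and Ly6G and positive for CD45 and CX3CR1 were sorted into 200000 YFP+ and 100000 YFP- cells, so that YFP+ and YFP- libraries of the same animals, m2, m6, m234, m235 and m236, were compared. The gate does not separate monocyte-derived cells from other macrophages of the central nervous system, both groups carry the reporter allele and have EAE, and no healthy animal was included. The total count was 28870482 to 33826355 in the YFP+ libraries and 8396863 to 35455643 in the YFP- libraries, where the lowest total was that of m234.

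Fatty acid oxidation shortens acyl-CoA chains step by step. In mitochondria, carnitine carries long chains through the membranes, and repeated rounds of dehydrogenation, hydration, a second dehydrogenation and thiolysis give acetyl-CoA and reduced electron carriers. Peroxisomes take up very long, branched and other chains that mitochondria handle poorly, shorten them and pass the products on, and phagocytes that engulf myelin meet such lipids in quantity.

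Of 44 members tested, 39 had a log2 fold change of YFP+ over YFP- cells above 0, and 9 of them were higher by the test used, each by less than a doubling. Of the mitochondrial genes, 27 of 27 passed the filter of CPM (counts scaled to a common library size) above 1 in at least 3 libraries, and 6 were higher in YFP+ cells at a false discovery rate (FDR) below 0.05: *Cpt1a*, *Acad10*, *Acad11*, *Hadh*, *Acaa2* and *Mcee*. Of the peroxisomal genes, 17 of 18 passed the filter and 3 were higher: *Abcd3*, *Crot* and *Decr2*. Over all 13740 genes tested, 937 were higher (6.82%) and 845 lower (6.15%), against 22.2% of the mitochondrial and 17.6% of the peroxisomal genes that were higher. With total counts in place of the scaled library sizes, the split over all genes became 701 higher and 1282 lower, and the counts of 6 and 3 members stayed. The call is that of edgeR’s quasi-likelihood test with Benjamini-Hochberg adjustment over all genes tested, written below as edgeR adjusted p.

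No member was lower at this FDR. At an unadjusted p below 0.05 in edgeR, 12 mitochondrial and 8 peroxisomal members were higher, against 2062 of all 13740 genes tested. By the same limit, 0 mitochondrial and 1 peroxisomal member, *Acot8*, were lower, against 2055 of all genes tested. DESeq2 and limma-trend each called 0 members lower in both compartments. The median log2 fold change was 0.18 over the mitochondrial and 0.17 over the peroxisomal genes, against -0.002 over all genes tested, and 24 of 27 and 15 of 17 were above 0, against 6817 of 13740. No member had a log2 fold change above 1, a limit that 77 genes (0.56%) passed upward and 122 (0.888%) downward together with the FDR. The largest value among the members was that of *Acad10*, 0.62 ± 0.11 (SE).

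With the animal as a replicate block, the test called 15 of 27 mitochondrial and 8 of 17 peroxisomal genes higher and 0 of either lower, where 2307 genes (16.8%) were higher and 2519 (18.3%) lower in all. Those 23 members were the 9 named above and *Acad12*, *Echs1*, *Eci1*, *Eci2*, *Decr1*, *Etfa*, *Etfb*, *Etfdh*, *Pcca*, *Abcd2*, *Scp2*, *Crat*, *Phyh* and *Ech1*. Within animals, 14 of 27 mitochondrial and 9 of 17 peroxisomal genes had more in the YFP+ library of all 5 animals, against 2750 of all genes (20%), and 1 member, *Acot8*, was lower in all 5, against 2887 genes (21%). The groups did not overlap, with every YFP+ library above every YFP- library, for 5 mitochondrial genes (*Cpt2*, *Acad10*, *Acad11*, *Hadh* and *Mcee*) and 3 peroxisomal genes (*Abcd3*, *Crot* and *Decr2*), against 845 genes (6.15%) in this direction and 714 (5.2%) in the other.

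**Figure D1:**
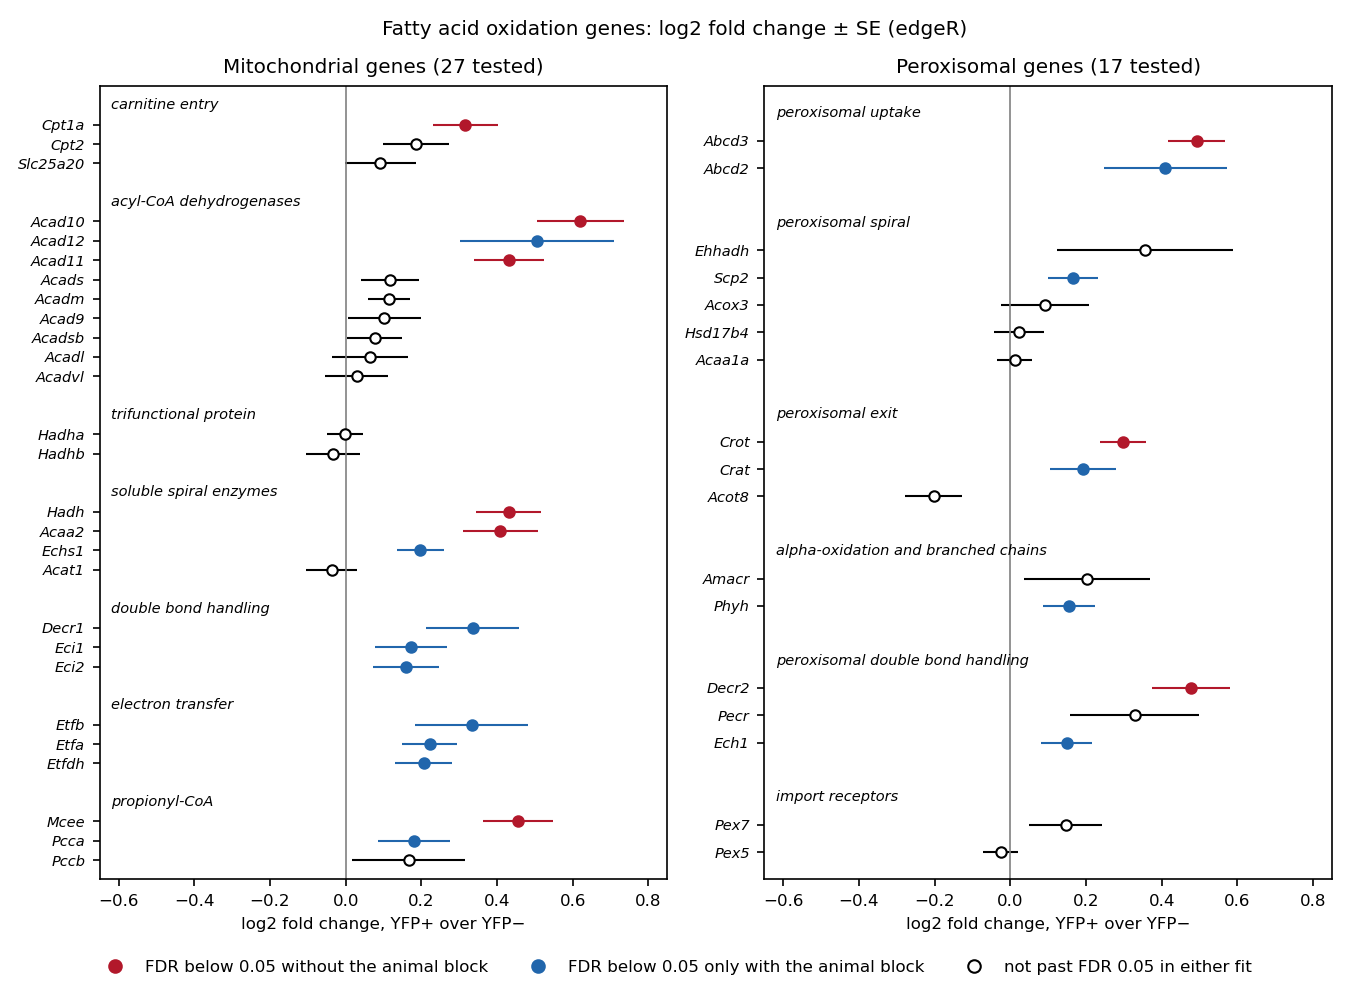
Log2 fold change of YFP+ over YFP- cells (points) with its SE (bars) from edgeR for the 27 mitochondrial and 17 peroxisomal genes tested, grouped by role, with colours for the fit in which the FDR was below 0.05. Points reach from -0.20 (*Acot8*) to 0.62 (*Acad10*), and the subunits of the trifunctional protein sit at -0.002 (*Hadha*) and -0.03 (*Hadhb*).

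Summed over the 27 mitochondrial genes, the level was 1017, 933, 889.5, 969.6 and 1021 CPM in the YFP+ libraries of m2, m6, m234, m235 and m236 and 873, 831, 813, 872 and 909 CPM in the YFP- libraries. The 18 peroxisomal genes together had 684, 654, 642, 617 and 683 CPM in YFP+ and 609, 600.3, 613, 574 and 613 CPM in YFP- cells. The YFP+ library had the higher sum in every animal in both compartments. Compared per length, as CPM per kilobase of annotated exon averaged over the 10 libraries, the mitochondrial genes with the highest levels were *Echs1* (44.7), *Etfa* (39.3) and *Acadl* (32.8), and the lowest was *Acad12* (0.687). Among peroxisomal genes, *Acaa1a* (50.9), *Ech1* (29.5) and *Hsd17b4* (27.2) were highest on this scale and *Hacl1* (0.292) was lowest.

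Long-chain acyl groups enter mitochondria through a relay of 3 members, of which the entry enzyme rose. *Cpt1a* (ENSMUSG00000024900, chr19:3322334-3385733, forward strand) encodes the carnitine palmitoyltransferase of the outer membrane, the step that malonyl-CoA inhibits. *Cpt1a* had 168, 131, 137, 164 and 155 CPM in YFP+ and 125, 108, 111, 133 and 130.1 CPM in YFP- cells. Each animal had more in its YFP+ library, and the groups overlapped because the YFP+ library of m6 lay below the YFP- library of m235. The log2 fold change was 0.32 ± 0.09 (edgeR adjusted p = 0.0312, and 0.000155 with the replicate block). Without the block, the edgeR adjusted p was above 0.05 when any of 6 libraries was left out: 0.0802, 0.0627 and 0.0638 without m2, m235 or m236 among the YFP+ libraries, and 0.0539, 0.0753 and 0.0522 without m2, m6 or m234 among the YFP- libraries. Without animal m2, m6, m235 or m236 it was 0.126, 0.0600, 0.0515 or 0.0816, and the adjusted p of *Cpt1a* was 0.000155 to 0.126 over 22 other fits. *Cpt2*, which returns the acyl group to CoA inside the inner membrane, averaged 6.03 ± 0.419 CPM (SD, n = 5) in YFP+ and 5.29 ± 0.191 CPM in YFP- cells, with no overlap but an edgeR adjusted p of 0.178. *Slc25a20*, the exchanger that moves acylcarnitine inward, had a log2 fold change of 0.09 ± 0.09 (edgeR adjusted p = 0.550, higher in 4 of 5 animals).

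The acyl-CoA dehydrogenases, which start each round by removing hydrogen from the chain, passed the FDR for 2 of 9 genes. *Acadl*, the enzyme for long chains, had a level among the 3 highest per kilobase among mitochondrial genes. *Acadl* had 66.1, 57.2, 56.1, 68.3 and 73.8 CPM in YFP+ and 62.4, 57.8, 49.0, 67.4 and 69.6 CPM in YFP- cells. In each group the lowest *Acadl* value was that of m234, and the spread over animals was larger than the difference within them. The enzymes named for chain length, *Acadvl* (very long), *Acadl* (long), *Acadm* (medium) and *Acads* (short), had log2 fold changes of 0.03, 0.06, 0.11 and 0.12, with edgeR adjusted p of 0.8496, 0.708, 0.191 and 0.328, and were higher in the YFP+ library of 3, 4, 5 and 4 of 5 animals. *Acadsb*, which acts on short branched chains, and *Acad9*, which also helps to assemble complex I of the respiratory chain, had log2 fold changes of 0.08 ± 0.07 and 0.10 ± 0.10.

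*Acad10* (ENSMUSG00000029456, chr5:121621026-121660514, reverse strand) is a family member with additional domains that has been linked to the breakdown of hydroxylated fatty acids, as has *Acad11*. *Acad10* had 6.95, 6.70, 6.30, 6.00 and 7.90 CPM in YFP+ and 4.67, 4.67, 4.002, 3.68 and 4.84 CPM in YFP- cells. All 5 YFP+ libraries lay above all YFP- libraries, and the log2 fold change was 0.62 ± 0.11 (edgeR adjusted p = 0.00548, and 6.81e-05 to 0.0351 over 22 other fits). *Acad11* (ENSMUSG00000090150, chr9:104063377-104127725, forward strand), counted as mitochondrial by the list alone, followed the same pattern at a higher level per kilobase. *Acad11* had 14.1, 12.8, 12.3, 11.7 and 14.8 CPM in YFP+ and 11.1, 9.45, 8.71, 9.19 and 10.1 CPM in YFP- cells. The groups were again apart, with a log2 fold change of 0.43 ± 0.09 (edgeR adjusted p = 0.0115), which became 0.0667 without animal m6 and 0.0542 without animal m236, and was 0.000740 to 0.0667 over 22 other fits. *Acad12*, the neighbour of *Acad10* on chromosome 5, was low, at 32 to 144 counts per library. *Acad12* had 3.72, 4.44, 4.65, 2.94 and 3.59 CPM in YFP+ and 2.27, 2.28, 3.77, 2.04 and 3.64 CPM in YFP- cells. Animal m236 had nearly the same *Acad12* value in both libraries and the other 4 had more in the YFP+ library (log2 fold change 0.51 ± 0.20, edgeR adjusted p = 0.117, and 0.0317 with the replicate block).

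Reads of some of these genes could be shared, or left out of the counts where exons overlap. Stretches of 50 bases, the read length, that also occur in *Acad12* made up 16.8% of the distinct stretches of *Acad10*, and those that also occur in *Acad10* made up 15.7% of *Acad12*. Exons of *Ackr4* on the other strand covered 8.86% of the *Acad11* exons and those of *Dvl2* covered 45.0% of *Acadvl*. Such overlap was 10.8% for *Eci2*, with *Gm16984*, and 10.2% for *Acox3*, and the available methods name a directional library kit but do not say if reads were assigned by strand.

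The middle of the spiral is run by a membrane-bound complex for long chains and by soluble enzymes for shorter chains. *Hadha* and *Hadhb* encode the subunits of the trifunctional protein, which hydrates, dehydrogenates and cleaves long chains. Their log2 fold changes were -0.002 ± 0.047 and -0.03 ± 0.07 (edgeR adjusted p = 0.988 and 0.795), with 115 ± 4.77 CPM (SD, n = 5) in YFP+ and 115 ± 4.16 CPM in YFP- cells for *Hadha*. *Hadhb* shares 18.1% of its 50-base stretches with *Gm13910*.

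*Hadh* (ENSMUSG00000027984, chr3:131233419-131272101, reverse strand) encodes the hydroxyacyl-CoA dehydrogenase for medium and short chains. *Hadh* had 28.1, 25.9, 23.0, 24.4 and 28.4 CPM in YFP+ and 18.9, 20.1, 19.9, 16.3 and 21.2 CPM in YFP- cells. The groups did not overlap, and the log2 fold change was 0.43 ± 0.09 (edgeR adjusted p = 0.00794, 0.0575 without animal m2, and 0.000159 to 0.0575 over 22 other fits). *Acaa2* (ENSMUSG00000036880, chr18:74779197-74806208, forward strand), the thiolase that cleaves medium chains, rose by a like amount. *Acaa2* had 44.3, 39.4, 35.3, 46.3 and 46.5 CPM in YFP+ and 31.6, 31.2, 26.0, 32.3 and 37.4 CPM in YFP- cells. Every animal had more *Acaa2* in its YFP+ library, and the YFP+ library of m234 lay below the YFP- library of m236 (log2 fold change 0.41 ± 0.10, edgeR adjusted p = 0.0202). Without the YFP+ library of m2 the edgeR adjusted p was 0.0520, and without both libraries of m2, m6 or m235 it was 0.102, 0.0773 or 0.0618, with 0.000122 to 0.102 over 22 other fits.

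*Echs1*, the enoyl-CoA hydratase for short chains, was the mitochondrial member with the highest level per kilobase. *Echs1* had 73.3, 80.2, 73.7, 69.2 and 75.6 CPM in YFP+ and 57.6, 65.2, 63.9, 66.5 and 71.3 CPM in YFP- cells. The YFP+ library held more in all 5 animals, most in m2 and least in m235, with a log2 fold change of 0.20 ± 0.06 (edgeR adjusted p = 0.0574, and 0.0112 with the replicate block). It also passed the FDR in DESeq2 (adjusted p = 0.0332), and in edgeR without the YFP+ library of m235 (0.0477) or the YFP- library of m236 (0.0378). *Acat1*, the thiolase for acetoacetyl-CoA that also serves ketone and isoleucine breakdown, had a log2 fold change of -0.04 ± 0.07 (edgeR adjusted p = 0.753).

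Unsaturated chains need helper enzymes. *Eci1* and *Eci2* shift double bonds, and *Decr1* reduces the dienoyl-CoA that some chains leave. *Eci1* had 16.5, 14.3, 12.7, 16.6 and 15.5 CPM in YFP+ and 14.1, 11.8, 12.2, 15.0 and 13.9 CPM in YFP- cells. *Eci2* had 28.8, 31.9, 26.9, 27.2 and 33.3 CPM in YFP+ and 27.2, 26.6, 24.0, 23.6 and 30.8 CPM in YFP- cells. *Decr1* had 11.4, 9.56, 9.17, 8.34 and 11.7 CPM in YFP+ and 8.80, 6.95, 9.53, 7.15 and 7.68 CPM in YFP- cells. *Eci1* and *Eci2* were higher in the YFP+ library of every animal, and *Decr1* in 4 of 5, with m234 the exception. All 3 missed the FDR without the replicate block and passed it with the block, with log2 fold changes of 0.17, 0.16 and 0.34 and edgeR adjusted p of 0.0395, 0.0216 and 0.0211 with the block, and 0.250, 0.247 and 0.0908 without it.

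Electrons from the dehydrogenases pass to a flavoprotein made of *Etfa* and *Etfb*, and *Etfdh* hands them to ubiquinone. *Etfa* had 58.7, 60.9, 52.7, 62.3 and 60.7 CPM in YFP+ and 53.7, 46.5, 43.8, 54.3 and 53.9 CPM in YFP- cells. *Etfb* had 9.59, 7.90, 7.53, 9.28 and 10.1 CPM in YFP+ and 7.98, 6.11, 4.59, 7.51 and 8.41 CPM in YFP- cells. *Etfdh* had 33.9, 29.99, 26.6, 32.4 and 35.3 CPM in YFP+ and 26.6, 28.4, 26.6, 27.6 and 27.8 CPM in YFP- cells. *Etfa* and *Etfb* were higher in the YFP+ library of all 5 animals, while *Etfdh* was nearly equal in the libraries of m234. The log2 fold changes were 0.22 ± 0.07, 0.33 ± 0.15 and 0.21 ± 0.08, with edgeR adjusted p of 0.0643, 0.157 and 0.0900, and 0.00340, 0.0112 and 0.0214 with the replicate block. Without the YFP+ library of m234 the edgeR adjusted p was 0.0359 for *Etfa* and 0.0189 for *Etfdh*, without animal m234 it was 0.0364 and 0.0254, and DESeq2 gave an adjusted p of 0.0359 for *Etfa*. *Gm45233* overlaps 69.1% of the *Etfb* exons on the same strand, and the authors’ counting mode leaves out reads that overlap more than 1 feature, so the level of *Etfb* is uncertain.

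Chains with an odd number of carbons and some amino acids end as propionyl-CoA, which *Pcca* and *Pccb* carboxylate and *Mcee* epimerizes for entry into the citric acid cycle. *Mcee* (ENSMUSG00000033429, chr7:64392607-64412125, forward strand) rose with the groups apart. *Mcee* had 13.7, 13.2, 12.8, 13.2 and 14.1 CPM in YFP+ and 9.84, 8.67, 8.004, 10.98 and 10.9 CPM in YFP- cells. The YFP+ libraries lay within a narrow range, and the log2 fold change was 0.46 ± 0.09 (edgeR adjusted p = 0.00923, 0.0562 without animal m2 and 0.0607 without m6, and 0.000149 to 0.0607 over 22 other fits). *Pcca* had 19.0, 19.8, 15.1, 16.0 and 18.6 CPM in YFP+ and 17.0, 16.5, 13.1, 15.5 and 15.4 CPM in YFP- cells. Higher in the YFP+ library of all 5 animals, *Pcca* was over the FDR limit without the replicate block and under it with the block (log2 fold change 0.18 ± 0.09, edgeR adjusted p = 0.0301 with the block and 0.219 without it). *Pccb*, the other subunit, had a log2 fold change of 0.17 ± 0.15, and its highest value of all was 22.0 CPM in the YFP- library of m234.

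**Figure D2:**
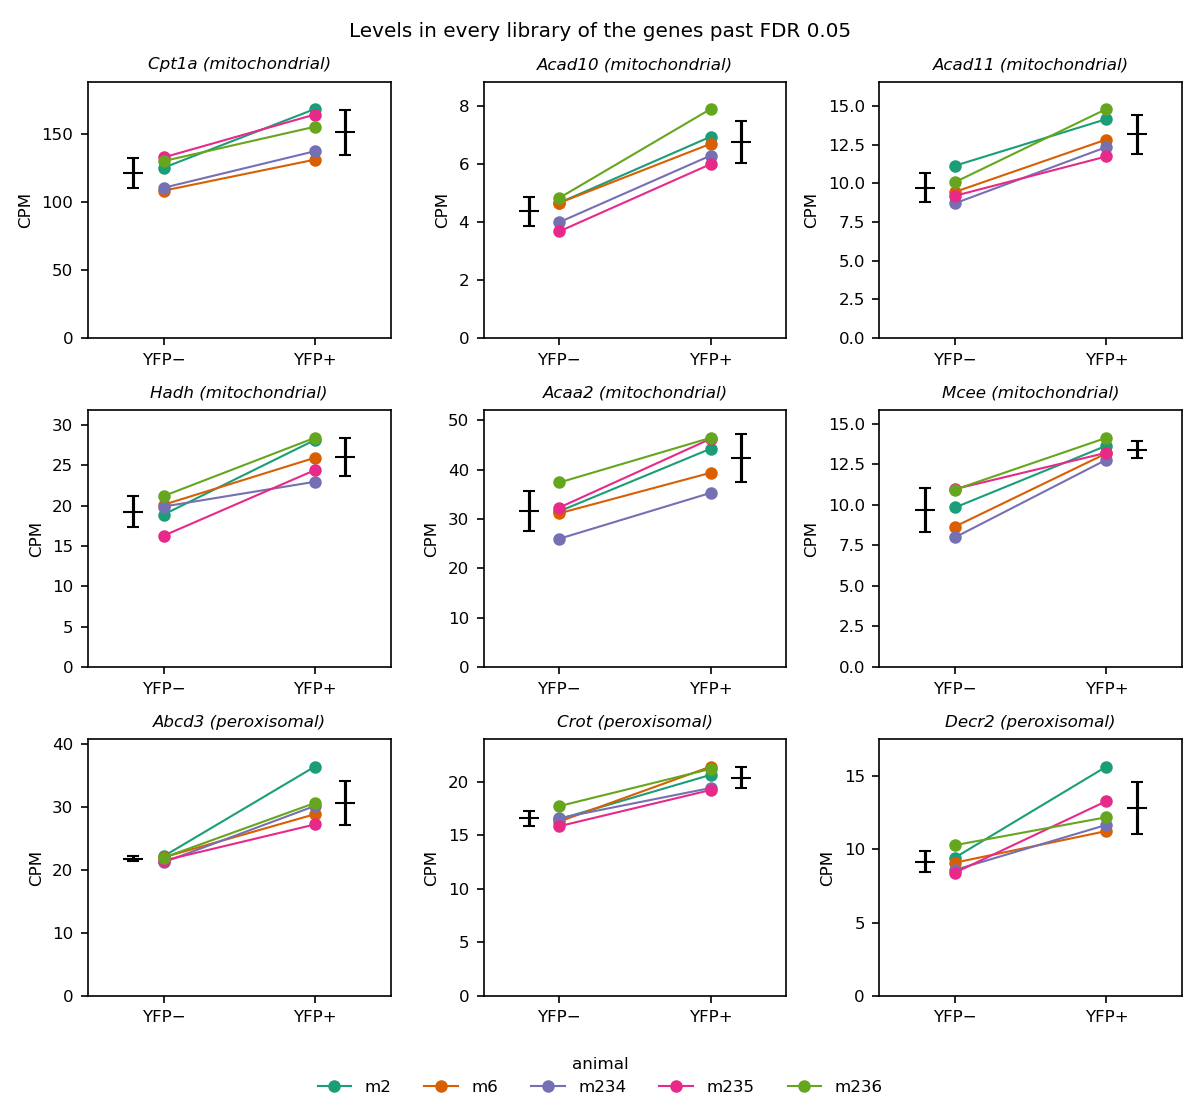
CPM in every library of the 9 genes with an FDR below 0.05, with a line for each animal joining its YFP- and YFP+ library and the mean ± SD (n = 5) beside each group. Every line runs upward, and the groups overlap only for *Cpt1a* and *Acaa2*.

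In the peroxisomal list, the median log2 fold change was 0.45 over 2 uptake genes, 0.33 over 3 genes for double bonds, 0.19 over 3 exit genes, 0.18 over 2 genes for alpha-oxidation and branched chains, 0.09 over the 5 enzymes of the spiral itself and 0.06 over 2 import receptors, and differences between these roles were not tested. *Abcd3* (ENSMUSG00000028127, chr3:121758774-121815302, reverse strand) and *Abcd2* encode ABC transporters that bring acyl-CoAs into the peroxisome. *Abcd3* had 36.4, 28.8, 30.1, 27.2 and 30.6 CPM in YFP+ and 22.1, 22.0, 21.2, 21.5 and 21.9 CPM in YFP- cells. The YFP- libraries lay close together and below all YFP+ libraries, and the log2 fold change was 0.49 ± 0.08 (edgeR adjusted p = 0.00195, and 6.65e-07 to 0.0156 over 22 other fits). *Abcd2* had 36.3, 18.9, 28.6, 29.5 and 33.3 CPM in YFP+ and 24.3, 16.8, 26.2, 21.4 and 22.6 CPM in YFP- cells. *Abcd2* was higher in the YFP+ library of every animal but varied between animals, and it was over the FDR limit without the replicate block and under it with the block (log2 fold change 0.41 ± 0.16, edgeR adjusted p = 0.114 without and 0.00290 with the block). Without the YFP+ library of m6 or without animal m6, which had the lowest values in both groups, the edgeR adjusted p of *Abcd2* was 0.0249 or 0.0366.

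Of the spiral enzymes inside the peroxisome, 0 of 5 were past the FDR without the block in edgeR, and 1 had an unadjusted p below 0.05. DESeq2 and limma-trend also called 0 of them. *Acaa1a* had 93.1, 90.6, 83.8, 92.6 and 90.7 CPM in YFP+ and 88.3, 89.1, 85.5, 92.4 and 91.5 CPM in YFP- cells. *Hsd17b4* had 82.4, 69.9, 68.9, 69.5 and 77.7 CPM in YFP+ and 80.4, 68.2, 72.6, 69.8 and 71.5 CPM in YFP- cells. *Acaa1a*, the peroxisomal thiolase, and *Hsd17b4*, the bifunctional hydratase and dehydrogenase that branched chains need, differed by less than the spread between animals, with log2 fold changes of 0.01 ± 0.05 and 0.02 ± 0.07. *Acaa1a* shares 12.4% of its 50-base stretches with *Acaa1b*. *Scp2* encodes a thiolase for branched chains and a sterol carrier protein. *Scp2* had 69.9, 75.5, 68.6, 70.0 and 78.4 CPM in YFP+ and 67.7, 66.3, 55.4, 63.3 and 69.4 CPM in YFP- cells. *Scp2* was higher in the YFP+ library of every animal (log2 fold change 0.17 ± 0.07, edgeR adjusted p = 0.115, and 0.0112 with the replicate block). Its 50-base stretches were shared to 29.7% with the pseudogene *Scp2-ps2*. *Acox3*, an oxidase for branched chains, and *Ehhadh*, the other bifunctional enzyme, had log2 fold changes of 0.09 ± 0.12 and 0.36 ± 0.23, the latter at 16 to 62 counts per library.

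Shortened chains leave the peroxisome as carnitine esters or as free acids. *Crot* (ENSMUSG00000003623, chr5:8966033-8997324, reverse strand) encodes the carnitine transferase for medium chains. *Crot* had 20.6, 21.4, 19.4, 19.2 and 21.2 CPM in YFP+ and 16.5, 16.3, 16.6, 15.8 and 17.7 CPM in YFP- cells. The groups did not overlap, and the log2 fold change was 0.30 ± 0.06 (edgeR adjusted p = 0.00914, 0.0601 without animal m2 and 0.0689 without m6, and 0.000522 to 0.0689 over 22 other fits). *Crat* had 48.2, 48.5, 40.8, 40.2 and 49.8 CPM in YFP+ and 43.8, 42.1, 35.4, 35.1 and 42.1 CPM in YFP- cells. *Crat*, which makes acetylcarnitine in peroxisomes and mitochondria, was higher in the YFP+ library of all 5 animals and over the FDR limit without the replicate block and under it with the block (log2 fold change 0.19 ± 0.09, edgeR adjusted p = 0.162 without and 0.00318 with the block). *Acot8*, a thioesterase that frees acids from CoA, went the other way in all 5 animals, with 9.80 ± 0.461 CPM (SD, n = 5) in YFP+ and 11.3 ± 0.781 CPM in YFP- cells. Its log2 fold change of -0.20 ± 0.08 missed the FDR both without the block and with it (edgeR adjusted p = 0.0953 and 0.0767), and exons of *Snx21* on the other strand covered 21.1% of its exons.

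Among the peroxisomal enzymes for double bonds, *Decr2* (ENSMUSG00000036775, chr17:26081208-26090337, reverse strand), a dienoyl-CoA reductase, rose. *Decr2* had 15.6, 11.2, 11.7, 13.3 and 12.2 CPM in YFP+ and 9.43, 9.09, 8.59, 8.41 and 10.3 CPM in YFP- cells. No YFP- library reached any YFP+ library, and the log2 fold change was 0.48 ± 0.10 (edgeR adjusted p = 0.0118, 0.0504 without animal m2, and 0.000671 to 0.0504 over 22 other fits). *Ech1* had 42.5, 38.0, 34.4, 41.6 and 39.9 CPM in YFP+ and 38.1, 35.1, 32.6, 34.6 and 36.4 CPM in YFP- cells. *Ech1*, a dienoyl-CoA isomerase, was higher in every YFP+ library than in its YFP- partner and over the FDR limit without the replicate block and under it with the block (log2 fold change 0.15 ± 0.07, edgeR adjusted p = 0.160 without and 0.0192 with the block). *Pecr*, an enoyl-CoA reductase, averaged 2.86 ± 0.508 CPM (SD, n = 5) in YFP+ and 2.30 ± 0.366 CPM in YFP- cells, at 22 to 105 counts per library (edgeR adjusted p = 0.215).

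Phytanic acid, a chain with methyl branches, is first shortened by alpha-oxidation. *Phyh* had 42.6, 34.5, 38.2, 38.0 and 38.5 CPM in YFP+ and 34.9, 31.3, 38.5, 34.4 and 33.9 CPM in YFP- cells. *Phyh*, the hydroxylase of that path, was higher in the YFP+ library of 4 animals and nearly equal in m234, and it was over the FDR limit without the replicate block and under it with the block (log2 fold change 0.15 ± 0.07, edgeR adjusted p = 0.155 without and 0.0306 with the block). *Hacl1*, the lyase that follows, did not pass the filter, with 14 to 26 counts per library and 0.712 ± 0.106 CPM (SD, n = 5) in YFP+ and 0.833 ± 0.465 CPM in YFP- cells. *Gm49387* overlaps 58.2% of the *Hacl1* exons on the same strand. *Amacr*, a racemase for branched chains, was also low, at 17 to 92 counts per library, with 2.39 ± 0.401 CPM (SD, n = 5) in YFP+ and 2.08 ± 0.304 CPM in YFP- cells. The import receptors *Pex5* and *Pex7*, which carry these enzymes into the organelle, had log2 fold changes of -0.03 ± 0.05 and 0.15 ± 0.10 (edgeR adjusted p = 0.744 and 0.331).

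**Figure D3:**
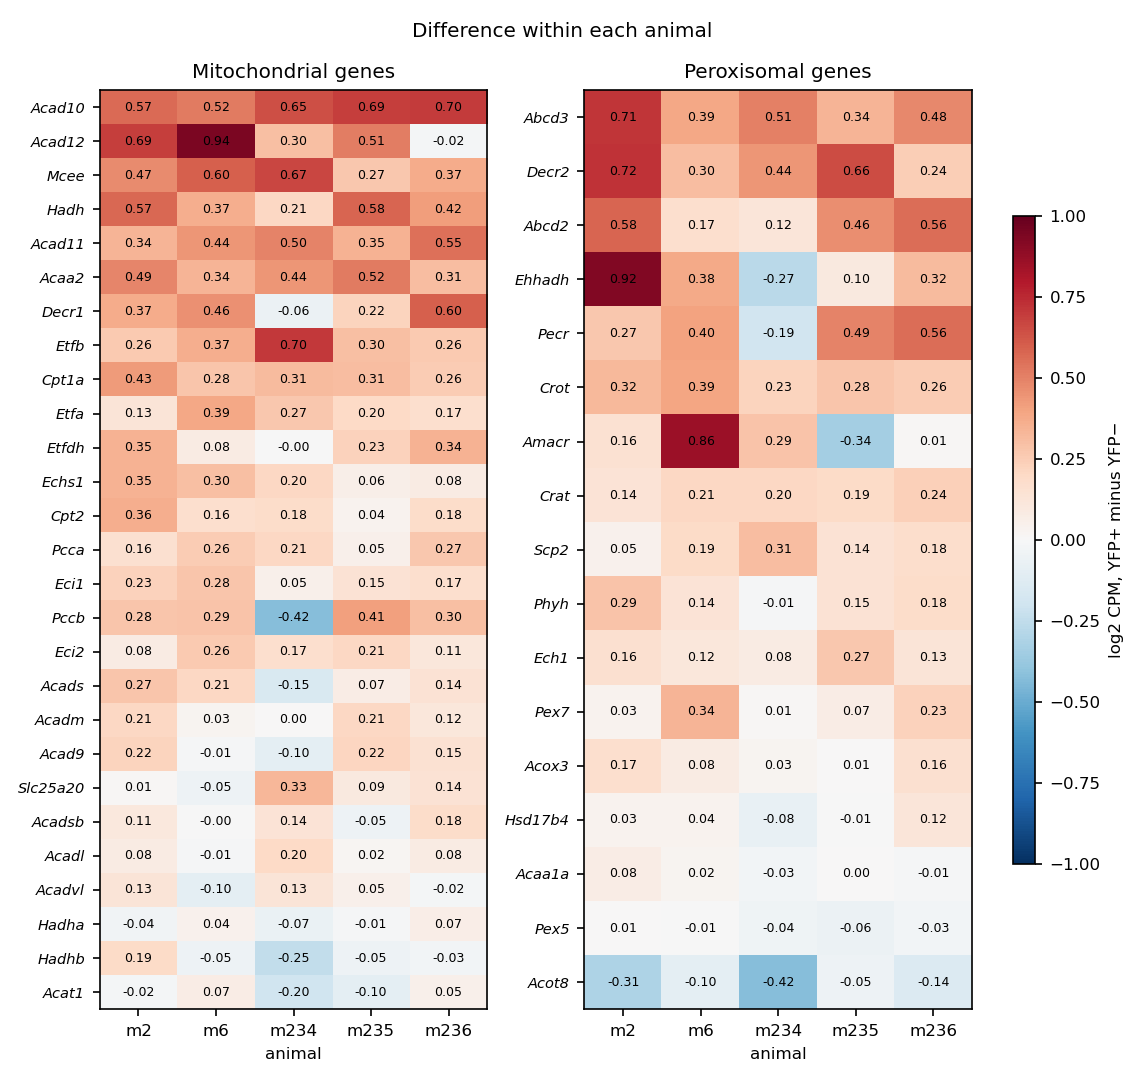
Difference in log2 CPM between the YFP+ and the YFP- library of each animal for the 27 mitochondrial and 17 peroxisomal genes tested, in order of the log2 fold change. *Acad10* was higher by 0.52 to 0.70 in all 5 animals, and *Acot8* was lower in all 5.

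Genes around the pathway were read from lists in the same way. Of 5 genes of carnitine supply, 3 were tested and 1 rose: *Aldh9a1*, an aldehyde dehydrogenase of carnitine synthesis, with 70.3 ± 9.87 CPM (SD, n = 5) in YFP+ and 51.4 ± 5.71 CPM in YFP- cells and a log2 fold change of 0.45 ± 0.10 (edgeR adjusted p = 0.0156). With the replicate block, 2 of the 3 were higher, where 16.8% of all genes tested were higher and 18.3% lower. Of 9 genes of malonyl-CoA control and AMPK, 7 were tested and 0 rose in edgeR or limma-trend, 1 was higher in DESeq2 and 1, *Mlycd*, at an unadjusted p below 0.05, *Prkag1* was the most abundant per kilobase, and *Prkab2*, a regulatory subunit of AMPK, fell by 0.42 ± 0.11 on the log2 scale (edgeR adjusted p = 0.0333, lower in 5 of 5 animals). With the replicate block, 2 genes of that list were higher, *Mlycd* (edgeR adjusted p = 0.0447) and *Prkaa1* (0.0174), and *Prkab2* was lower. Of 15 regulators of these pathways, 13 were tested, and *Rxra*, the retinoid X receptor that pairs with PPARs, rose by 0.55 ± 0.06 on the log2 scale (edgeR adjusted p = 0.000392), from 85.6 ± 5.53 to 125 ± 8.41 CPM, with no overlap. *Tfe3* had the highest level per kilobase of that list, *Ppara* had 0 counts in all libraries, *Ppargc1a* was at or below 0.131 CPM, and *Pparg* averaged 6.04 ± 1.40 CPM (SD, n = 5) in YFP+ and 3.89 ± 1.05 CPM in YFP- cells (edgeR adjusted p = 0.0752, and 0.00896 with the replicate block). Of the 13, 7 had a log2 fold change below 0 and the median was -0.02. With the replicate block, *Rxrb*, *Pprc1* and *Esrra* were lower, each in 5 of 5 animals (edgeR adjusted p = 0.0348, 0.0250 and 0.0380, and 0.264, 0.0847 and 0.179 without it), and DESeq2 called 2 regulators higher and 1 lower. Genes of these lists other than *Aldh9a1*, *Prkag1*, *Prkab2*, *Rxra* and *Tfe3* are named after their values were seen.

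Of 32 symbols of other oxidation enzymes, 24 passed the filter, of which 4 rose. None fell in edgeR, DESeq2 or limma-trend, and 0 were lower at an unadjusted p below 0.05, against 2055 of all 13740 genes tested. In this list 23 were above 0, and the median log2 fold change was 0.17. With the replicate block 7 of the 24 were higher, against 2307 of all 13740 genes tested (16.8%). The 4 were *Cat*, the catalase that removes the peroxide of peroxisomal oxidation (log2 fold change 0.32 ± 0.05, edgeR adjusted p = 0.00216), *Nudt19*, a peroxisomal hydrolase of CoA (0.40 ± 0.11, edgeR adjusted p = 0.0295), *Hibadh* of valine breakdown (0.37 ± 0.08, edgeR adjusted p = 0.0119) and *Abcd4*, a transporter of the same family as *Abcd3* that serves lysosomal cobalamin (0.37 ± 0.09, edgeR adjusted p = 0.0163). *Cat* had 62.0, 56.7, 54.2, 55.3 and 59.9 CPM in YFP+ and 47.3, 44.7, 47.1, 46.0 and 45.2 CPM in YFP- cells, with no overlap. *Hsd17b10* had the highest level per kilobase of this list. *Mmut*, the mutase after *Mcee*, chosen after its values were seen, had a log2 fold change of 0.24 ± 0.09 (edgeR adjusted p = 0.0990, and 0.0460 with the replicate block).

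Other genes of the organelles followed. All 22 genes for mitochondrial import, channels, chaperones and the citric acid cycle were tested. In either direction, 0 of these genes were past the FDR in edgeR, DESeq2 and limma-trend. At an unadjusted p below 0.05, 2 were higher and 1 lower, against 2062 and 2055 of all 13740 genes tested. With the replicate block, 1 was higher and 1 lower, against 2307 and 2519 of all genes tested. The median log2 fold change of the 22 genes was 0.0022. *Slc25a3*, the most abundant of them per kilobase, averaged 392 ± 19.9 CPM (SD, n = 5) in YFP+ and 388 ± 14.7 CPM in YFP- cells. Of 15 genes for building peroxisomes, 14 were tested and 0 were past the FDR in edgeR and limma-trend and 1 was higher in DESeq2, 2 were higher at an unadjusted p below 0.05, and the median was 0.11. *Pex19*, the most abundant of these per kilobase, was higher with the replicate block (edgeR adjusted p = 0.0277, and 0.0752 without it). Of 7 genes for ketone bodies, 5 were tested and 0 were past the FDR by any of these tools or below an unadjusted p of 0.05, and the median was -0.10. Whether these medians differ from those of the oxidation genes was not tested.

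Markers of other cells moved with the groups, and in bulk libraries fewer cells of a type and less RNA per cell cannot be told apart. Of 10 dendritic cell markers, 8 were tested and 6 were lower in YFP+ cells (*Flt3*, *Zbtb46*, *Ccr7*, *Batf3*, *Dpp4* and *Kmo*), and the list summed to 28.9, 19.8, 31.4, 22.8 and 17.2 CPM in YFP+ and 54.5, 32.5, 54.8, 36.5 and 30.8 CPM in YFP- cells. *Clec9a*, its most abundant gene per kilobase, did not pass the FDR (log2 fold change 0.28 ± 0.28, edgeR adjusted p = 0.547, higher in 4 of 5 animals), and *Xcr1* and *Cd209a* were below 1 CPM on average. Of 8 microglia markers, 0 were past the FDR without the block in edgeR and limma-trend, and 1 was lower in DESeq2. At an unadjusted p below 0.05, 5 of these markers were lower, against 2055 of all 13740 genes tested. With the replicate block, 6 of these markers were lower, against 2519 of all 13740 genes tested (18.3%). Their sum was 978, 1036, 1073, 768 and 1188 CPM in YFP+ and 1524, 1101, 3189.9, 841 and 1279 CPM in YFP- cells and was highest in the YFP- library of m234. Of 7 markers of macrophages at the borders of the central nervous system, 3 were tested and 2, *Mrc1* and *Stab1*, were higher, *F13a1* was the most abundant per kilobase, and *Cd163*, *Lyve1*, *Cbr2* and *Folr2* were below 1 CPM on average in both groups. With the replicate block, *F13a1* was higher as well (edgeR adjusted p = 0.0511 without and 1.62e-05 with the block). That list summed to 1816, 2065, 1502, 1892 and 2345 CPM in YFP+ and 1084, 1327, 807, 1239 and 1396 CPM in YFP- cells.

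Of 9 markers of the sorted population, *Itgam*, *Cd68* and *Lyz2* were higher and *Ccr2* lower, with *Lyz2* the most abundant, and they summed to 18275, 16854, 16911, 13761 and 18912 CPM in YFP+ and 13008, 13037, 12960.2, 12376 and 14924 CPM in YFP- cells. With the replicate block, *Adgre1* was higher as well and *Ptprc*, *Csf1r*, *Ly6c2* and *Cx3cr1* were lower, each in all 5 animals. *Cx3cr1*, on which the cells were sorted, averaged 139.6 ± 67.0 CPM (SD, n = 5) in YFP+ and 282 ± 176 CPM in YFP- cells (edgeR adjusted p = 0.153 without and 9.24e-05 with the block). B cell markers were tested for 3 of 6 genes, *Ighm* and *Jchain* were lower, *Cd79b* did not pass the FDR (log2 fold change 0.08 ± 0.40, edgeR adjusted p = 0.921, higher in 3 of 5 animals), *Cd79a* averaged 0.432 CPM in YFP+ and 0.338 CPM in YFP- cells, and *Ms4a1* was near 0. The sums of that list were 10.8, 10.4, 11.2, 4.91 and 13.03 CPM in YFP+ and 38.1, 25.4, 52.3, 19.5 and 29.1 CPM in YFP- cells, mostly *Ighm*. Neutrophil markers were tested for 2 of 7, *S100a9* was lower, *S100a8* was higher with the replicate block (edgeR adjusted p = 0.0154, and 0.560 without it), *Ly6g* and *Retnlg* were near 0, and the sums, mostly *S100a8*, were 18.2, 30.6, 18.02, 29.5 and 29.5 and 23.2, 31.7, 12.2, 24.9 and 25.0 CPM. T cell markers summed to 2.05, 1.98, 1.78, 1.76 and 2.42 CPM in YFP+ and 3.38, 2.83, 2.24, 0.894 and 2.77 CPM in YFP- cells, with each gene below 1 CPM on average, and *Lck*, the most abundant and the 1 of 8 tested, had an edgeR adjusted p of 0.546.

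Oligodendrocyte markers (5 of 6 tested, mostly *Mbp*) summed to 131, 129.7, 152, 117 and 125 CPM in YFP+ and 114, 119, 155, 104 and 116 CPM in YFP- cells. Astrocyte markers (4 of 5 tested, *Slc1a2* the most abundant) summed to 15.9, 18.3, 25.9, 19.9 and 16.5 and 21.0, 21.0, 30.8, 31.0 and 26.5 CPM, and neuron markers (0 of 5 tested, *Tubb3* the most abundant) to 0.521, 0.939, 0.646, 0.394 and 0.588 and 0.631, 0.750, 0.353, 0.250 and 0.467 CPM. Proliferation genes (6 of 7 tested, *Mki67* the most abundant) summed to 116, 92.9, 82.8, 80.8 and 98.9 and 139, 90.6, 83.8, 82.1 and 89.2 CPM. None of these 4 lists had a gene past the FDR in limma-trend or in edgeR without the block. With the replicate block, *Mbp* and *Mki67* were higher and *Slc1a3*, *Birc5* and *Mcm5* lower (edgeR adjusted p = 0.00306, 0.00803, 0.00419, 0.0147 and 0.000330, and 0.0789, 0.413, 0.0570, 0.100 and 0.0507 without it). DESeq2 called 1 oligodendrocyte gene higher and 1 astrocyte and 1 proliferation gene lower. At an unadjusted p below 0.05 in edgeR, *Mbp* was higher and *Slc1a3*, *Birc5* and *Mcm5* were lower, as found after the values were seen. The part of any of these cell types in the values of the oxidation genes was not tested. Without both libraries of m234, the animal with the highest microglia sum, 8 mitochondrial and 3 peroxisomal genes were higher at the FDR, against 1037 of all genes. Without m2, m6, m235 or m236, 2, 2, 4 or 4 mitochondrial and 1, 3, 3 or 3 peroxisomal genes were higher. Of all genes, 372, 360, 704 or 500 were higher in those fits. Whether these shifts follow the microglia markers was not tested.

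Promoters were looked at because 39 of 44 members tested had a log2 fold change above 0. RefSeq promoters on GRCm38.p6, from 250 bases before to 50 after the start of transcription, were found for 37 of 45 members, with 41 promoters among 32851 in all. *Acad9*, *Decr1*, *Acaa2*, *Acat1*, *Hsd17b4*, *Abcd2*, *Crat* and *Amacr* had no entry. Both strands were searched. A pair of AGGTCA elements 1 base apart, the form that PPAR and RXR dimers bind, was in no member promoter and in 0.0396% of all. The ERR motif TCAAGGTCA, which contains AGGTCA, and the E-box TCACGTGA of the TFEB family were in no member promoter and in 0.423% and 0.974% of all. Single AGGTCA elements were in 8 promoters of 7 members (*Acadm*, *Acadvl*, *Cpt1a*, *Echs1*, *Pcca*, *Phyh* and *Scp2*), and in 16.3% of all. The motif GCGCATGCG, which nuclear respiratory factor NRF1 binds, was in the promoters of 5 members, all mitochondrial, and in 1.75% of all. The motifs were chosen after the values were seen, and a match describes letters, not binding.

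The windows of 30 bases around the NRF1 motif are shown for the 5 members because they include *Acad10*, the gene with the largest fold change, and its neighbour *Acad12*. They lie at chr5:121660499-121660528 (*Acad10*), chr5:121618963-121618992 (*Acad12*), chr3:79628876-79628905 (*Etfdh*), chr3:153944783-153944812 (*Acadm*) and chr9:101034900-101034929 (*Pccb*), all on the reverse strand of GRCm38. Capitals mark the motif on either strand. It ends 35, 119, 150 and 26 bases before the RefSeq start of *Acad12*, *Etfdh*, *Acadm* and *Pccb*, and lies across that of *Acad10*. In the annotation of the count table, *Etfdh* spans chr3:79603788-79629500, so its window lies inside that span, after the start given there. Of these genes, *Acad10* was past the FDR without the block, *Acad12* and *Etfdh* with it, and *Acadm* and *Pccb* in neither fit.
Acad10: ggccccgggcGCGCATGCGctttcgacagc
Acad12: ggcccaagtcGCGCATGCGctttcgtcagt
Etfdh: tgcttctaggGCGCATGCGcacacgcgaga
Acadm: gggagcaggaCGCATGCGCagagggccttc
Pccb: tacgctctctGCGCATGCGtcctgaggtgc

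*Hadha* and *Hadhb*, the pair of subunits at a log2 fold change near 0, start head to head on chromosome 5, and their promoters overlap by 228 bases. The 85 bases between their annotated ends, at chr5:30155163-30155247 (GRCm38, forward strand), held 0 matches to the motifs above.
Hadha-Hadhb: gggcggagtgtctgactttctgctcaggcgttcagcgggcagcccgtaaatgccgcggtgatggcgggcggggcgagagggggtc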

How the data were processed

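RNA from 10 bulk libraries, an YFP+ and an YFP- library from each of 5 animals, was sequenced as 50-base single-end reads. The authors aligned the reads with STAR 2.7.10b to GRCm38 and counted them over basic Ensembl transcripts with summarizeOverlaps in Union mode, summed to genes. The deposited values are raw counts of reads per gene, and no step of this alignment was repeated. Of 55487 genes, 29542 had a count, and the test covered 13740 whose CPM exceeded 1 in 3 or more libraries (99.8% of all counts). Total counts had a median of 31235168 in YFP+ and 29727408 in YFP- libraries. For the members with the fewest counts the range of counts is given, since few counts limit precision.

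Groups were compared with edgeR 4.0.16 (R 4.3.3), with TMM library sizes, the quasi-likelihood test and Benjamini-Hochberg adjustment over all genes tested, and FDR below 0.05 as the limit. The SE is the absolute log2 fold change divided by the square root of F. CPM values use TMM library sizes. Differences from the mean of each group correlated with r of 0.361 to 0.664 between libraries of the same animal (5 pairs) and -0.367 to 0.0675 between different animals (20 pairs). Values with the animal as a replicate block are therefore given where they change the call of a member, and for the other lists as counts or by gene. In the fit with the block, 16.8% of all genes tested were higher and 18.3% lower, and every count from that fit is read against these shares. Alternatives were DESeq2 1.42.0, limma-trend 3.58.1 with a prior count of 2, RLE and total counts as library sizes, no filter, CPM above 1 in all 10 libraries, the replicate block, leaving out each library or animal, and a limit of 1 on the absolute log2 fold change. The pipeline was tested on simulated data.

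Values in every library are given for members with FDR below 0.05 without or with the block, for *Cpt1a*, and for the 3 members of each compartment with the highest level per kilobase. From the other lists (carnitine supply, malonyl-CoA control, regulators, other oxidation enzymes, ketone bodies, peroxisome building, mitochondrial content), genes past the FDR and the most abundant are named, and some of these genes are not reported here. Members and lists were chosen with earlier results of these data known. Exon lengths and overlaps come from the GENCODE M21 basic annotation. Positions, sequences and motifs were read with Python 3.11.15.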

Additional observations from a re-analysis of the deposited data

Results flagged for a closer look

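In each group of 5 libraries, the gap of the lowest or highest log2 CPM to its neighbour was divided by the range of the group and compared with a limit of 0.71. Of 88 groups (44 members in YFP+ and YFP- cells), 3 lay above it, and chance alone takes about 1 in 20 groups past this limit. *Acaa1a* in YFP+ cells had a ratio of 0.747, with 83.8 CPM in m234 against 90.6 to 93.1 CPM in the other libraries. *Pex5* in YFP+ cells had a ratio of 0.804, with 52.0 CPM in m2 against 54.4 to 55.1 CPM. *Pecr* in YFP- cells had a ratio of 0.727, with 1.68 CPM in m235 against 2.30 to 2.59 CPM. None of these 3 genes was past the FDR in edgeR (adjusted p = 0.890, 0.744 and 0.215), and why these libraries lie apart was not tested.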

How the results depend on the processing

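The 6 mitochondrial and 3 peroxisomal genes higher in YFP+ cells became 15 and 8 with the replicate block and 0 and 0 with the limit on the fold change, which no member reached. Leaving out a library or an animal gave 2 to 8 mitochondrial and 1 to 4 peroxisomal genes. All fits that left out a library or an animal were run without the replicate block, so how calls with the block depend on single animals was not tested. The low ends were 2 mitochondrial genes without animal m2 or m6 and 1 peroxisomal gene without animal m2. Of all genes, 2307 were higher and 2519 lower with the replicate block, and 77 and 122 with the fold limit. DESeq2 called 1276 higher and 1307 lower, and total counts as library sizes gave 701 higher and 1282 lower. Leaving out a library or an animal gave 360 to 1037 genes higher and 284 to 911 lower. The low ends came without animal m6, next to 372 and 316 without m2 and 500 and 412 without m236. Leaving out the YFP+ library of m2 gave 572 and 481, the YFP+ library of m6 518 lower, and the YFP- library of m2 561 lower. The counts of lower members were 0 in every fit run. Of 968 values of members in the 22 other fits, 902 kept their direction and side of the threshold, 24 came to pass it and 22 no longer passed it. A further 20, of genes past the threshold in neither, changed sign, and 0 called values did. *Acad10* and *Abcd3* were past the FDR in all 22 other fits. Median log2 fold changes were 0.14 to 0.21 for mitochondrial and 0.12 to 0.19 for peroxisomal genes. The fits with fewer libraries have fewer residual degrees of freedom, and other causes of these shifts were not tested. Depth limits *Hacl1* (14 to 26 counts a library) and *Ehhadh* (16 to 62). Other limits are the 5 animals, groups split by the reporter alone within the gate, and bulk libraries that mix cell types. Each YFP+ library came from 200000 cells and each YFP- library from 100000, so cell number and reporter cannot be told apart. Genes with shared sequence may exchange reads, and reads of overlapping exons may be left out of the counts. These libraries hold no measure of protein, metabolites or oxidation itself.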
